A study of Bos taurus with 12 samples.

Results

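Theca of large bovine follicles was compared with theca of small ones on 4 of the 12 arrays of a study of antral follicle growth. These 4 arrays were chosen by their titles, 2 for theca of follicles over 10 mm and 2 for theca of follicles up to 5 mm, and every probe set other than the array's own controls was kept, whatever its change. After a filter on low signals 17236 probe sets were tested, which stand for 7885 named genes and for unnamed transcripts. The study measured granulosa and theca cells from follicles of 3 sizes with 2 arrays per group, by Affymetrix bovine arrays and biotin-labelled total RNA. The 2 theca arrays of medium follicles, 5 to 10 mm, are given below for reference.

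All groups were untreated. The ovaries came from young nonpregnant cycling heifers in the follicular stage, recognised by large antral follicles without a corpus luteum, and were collected within 10 min of death and kept on ice. Each RNA sample was a pool, so no array shows a single animal or follicle. A pool held 20 to 40 follicles of 1 size by the extraction protocol, and 20 to 40 ovaries of 6 to 10 heifers by the design text. Replicates are labelled as biological. Whether an animal gave follicles to more than 1 pool is not stated, so the p-values measure the spread between pools. One label field names theca for all 12 samples, whereas title and source name give granulosa for 6. The titles were followed, and the marker levels bear on this.

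The theca is the vascular layer around the follicle, outside the basement membrane that encloses the granulosa cells. Its steroid cells carry the receptor for luteinising hormone (LH) and turn cholesterol into androgens with the side-chain cleavage enzyme CYP11A1, the dehydrogenase HSD3B1 and the 17-hydroxylase/lyase CYP17A1. The granulosa cells, which respond to follicle-stimulating hormone, turn those androgens into oestradiol with aromatase, CYP19A1, and make inhibins and activins. The theca also holds capillaries, fibroblasts, smooth muscle cells and leukocytes.

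The arrays had the markers of theca. The insulin-like peptide INSL3, a hormone of theca steroid cells, gave signals of 12716 and 8705.8 in small and of 8461.6 and 9088.7 in large theca. The summed signal of 14 theca steroid cell markers was 34136 and 24041 on the small, and 27532 and 21752 on the large theca arrays, against 3702.9 to 4558.1 on the granulosa arrays of the same sizes. Signals here are the deposited array intensities, and each array has its own total scaled to a common level, so a change is relative to the rest of the array.

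Small theca replicate 1 stood apart. Its control probes for GAPDH were 8.36 times as bright at the 3′ end of the transcript as at the 5′ end, a ratio that is read as a sign of RNA quality, and it lay between 0.984 and 1.30 on each of the 11 remaining arrays. The beta-actin probes gave 11.2 there, 4.14 to 7.25 on the other 3 arrays compared and 21.0 on large granulosa replicate 1, whereas the elongation factor probes gave 0.202 there and 0.207 to 0.221. The Spearman coefficient between replicates was 0.851 for small theca, 0.955 for medium and 0.950 for large. In small theca 18.9% of probe sets differed by over 1 log2 unit between the replicates, against 2.23% in medium and 3.70% in large theca. Results are therefore given for each array, and also without small replicate 1 for genes it moves most. Whether RNA quality has a part in them was not tested.

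Large theca had far higher signals than small theca for a short list of transcripts, led by genes best known from granulosa cells. Aromatase rose 52.1-fold, the activin subunit INHBA 23.2-fold, the matrix-binding protein TNFAIP6 23.1-fold, the apolipoprotein APOA2 12.4-fold and LOC767968, a gene with the synonyms BEX1 and BEX2, 6.51-fold. A transcript without a gene name here, probe set Bt.24940.1.A1_at, rose with them. These 6 probe sets were the only ones of 17236 past a Benjamini-Hochberg adjusted p of 0.05 in the limma model, and all 6 rose; that is 0.0348% of those tested, and 0 fell. In genes, counted by 1 probe set each, it is 5 of 7885, or 0.0634%. At an unadjusted p under 0.05 there were 830 higher probe sets (4.82%) and 935 lower ones (5.42%), or 4.63% and 4.92% of the genes. Both large arrays lay above both small arrays for 17.3% of the probe sets and below both for 23.7%. For genes, counted by 1 probe set each, these shares were 19.3% and 22.1%, to be set beside every list count below. Changes are log2 changes of signal + 16, large minus small, with the standard error of the model and n = 2 arrays per group. The model took 1 spread per probe set from all 12 arrays, granulosa included, though the small theca replicates differed more than those of larger theca. Fits of the theca arrays alone, or of the 4 compared arrays alone, called 0 probe sets. That scale understates the fold of dim genes. "Called" below means an adjusted p under 0.05, and a gene not said to be called did not pass.

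CYP19A1, which makes oestradiol from androgens, gave 21.9 and 52.8 in small, 911.6 and 183.8 in medium and 1633.2 and 4279.2 in large theca. The large arrays were far above the small ones and both medium arrays lay between, with a log2 change of 5.70 ± 0.63 (adjusted p = 0.00203, limma). INHBA, which forms activin A and, with INHA, inhibin A, gave 171.3 and 135.2 in small, 2846.9 and 955.9 in medium and 2621.5 and 5756.4 in large theca. Its change was 4.54 ± 0.50 (adjusted p = 0.00203), and medium replicate 1 already reached the range of the large arrays. The unnamed transcript Bt.24940.1.A1_at likewise had medium replicate 1 within the range of the large arrays, with 72.9 and 123.4 in small, 3052.7 and 820.3 in medium and 2115.1 and 4467.1 in large theca (4.80 ± 0.53, adjusted p = 0.00203).

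TNFAIP6, a hyaluronan-binding protein known from the ovulatory follicle, gave 15 and 5.8 in small, 71.0 and 6.4 in medium and 361.1 and 938.5 in large theca. Its change was 4.53 ± 0.60 (adjusted p = 0.00907), and the signals of small theca lay under 22.5, the level used to filter dim probe sets. APOA2, a protein of high-density lipoprotein, was as dim in small theca at 4.1 and 11.4, stayed at 20.1 and 4.7 in medium theca and reached 167.4 and 447.9 in large theca (3.64 ± 0.47, adjusted p = 0.00906). Since the small signals of both are near the bottom of the scale, the size of their change depends on the constant added: it ran from 3.14 to 5.81 for TNFAIP6 and from 2.26 to 5.11 for APOA2 over the alternatives tried. LOC767968 gave 385.2 and 252.5 in small, 429.5 and 436.9 in medium and 1823.5 and 2467.5 in large theca (2.70 ± 0.38, adjusted p = 0.0134). Its medium arrays lay just above the small ones and far below the large ones.

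Among the called probe sets large replicate 2 was above large replicate 1 in 6 of 6, against 47.2% of all tested, and medium replicate 1 was above medium replicate 2 in 5 of 6, against 52.4%. Further probe sets existed for 2 of the genes: a second one for CYP19A1 gave 2.63 (adjusted p = 0.107) and a second one for TNFAIP6 gave 3.18 (adjusted p = 0.0598), both higher in large theca and neither called. Without large replicate 2 no probe set was called by limma, and 817 had an unadjusted p under 0.05. Without small replicate 2, which leaves the array with the high GAPDH ratio as the only small one, 607 were called, 449 up and 158 down.

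**Figure D1:**
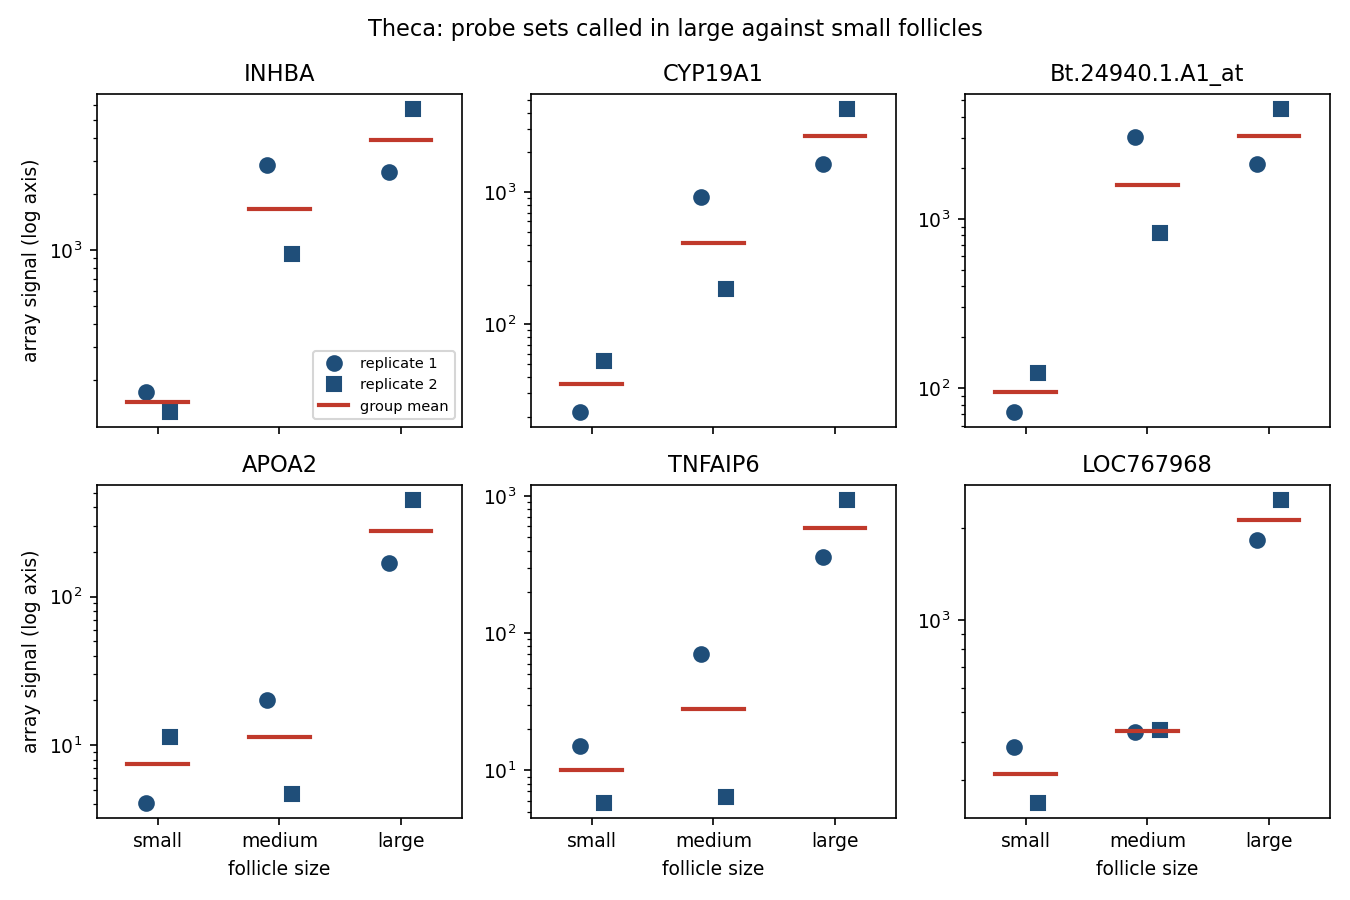
Signals of the 6 called probe sets in theca of small, medium and large follicles, 1 panel each; points are arrays, circles for replicate 1 and squares for replicate 2, bars are group means, and the vertical axes are log axes of array signal. Both large arrays lie above both small arrays in every panel, and large replicate 2 lies above large replicate 1.

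**Figure D2:**
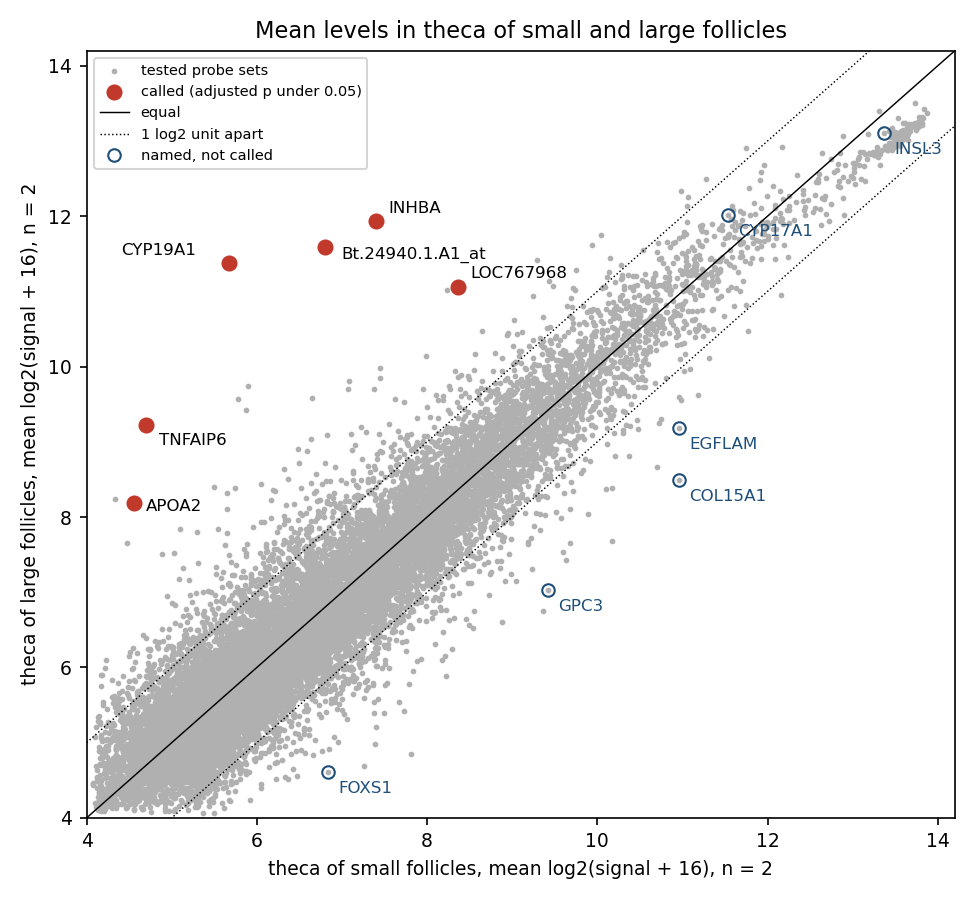
Mean log2(signal + 16) of each of the 17236 tested probe sets in theca of small (horizontal) and large follicles (vertical), n = 2 arrays per group; the solid line marks equal levels and the dotted lines 1 log2 unit. The 6 called probe sets (filled) all lie above the line; GPC3, COL15A1, EGFLAM and FOXS1 (open, not called) lie below it and CYP17A1 and INSL3 near it.

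Markers of granulosa cells were then read in the theca arrays. Of 17 tested markers 2 rose, CYP19A1 and INHBA; 9 were higher on both large arrays than on both small arrays and 3 were lower, against 19.3% and 22.1% of all 7885 genes. Their median log2 change was 0.73, against -0.02 over all genes, and 0.50 without small replicate 1. Their summed signal was 10166 and 13325 on the small, 24001 and 13115 on the medium and 23201 and 34551 on the large theca arrays. On the granulosa arrays of small and large follicles it was 33835 to 57561.

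The markers did not move as a block. In large theca the mean signal of CYP19A1 was 119% of that in granulosa of large follicles, INHBA 101%, the protease inhibitor SERPINE2 92.0% and the activin-binding protein FST 79.1%. In small theca the same genes stood at 1.51% for CYP19A1, 3.69% for INHBA, 56.1% for SERPINE2 and 32.3% for FST. CRABP2 and NR5A2 were higher in large theca too, though well below granulosa, and neither was called. CRABP2 stood at 3.35% in small and 11.6% in large theca, and NR5A2 at 9.07% and 30.3%. FOXL2, a transcription factor of granulosa cells, gave 3.7 and 1.4 in small and 38.2 and 58.4 in large theca, but its signals of 8.6 and 64.3 in granulosa of large follicles, 1 of them under the filter level of 22.5, give no firm level to set this against. The keratins of the granulosa epithelium went no such way: KRT18 gave 292.5 and 221.4 in small and 137.6 and 56.7 in large theca, 7.95% of the granulosa level, and KRT8 was at 15.9 or below on all 4 arrays. KRT18 was lower with size in granulosa as well, at 1425.3 and 1018.7 in large against 5964.4 and 4945.2 in small follicles. The follicle-stimulating hormone receptor FSHR gave 5.0 and 63.3 in small and 17.3 and 35.9 in large theca, 25.9% of the granulosa level. The anti-Müllerian hormone AMH, a product of granulosa cells of growing follicles, was lower in large theca at 52.5 and 81.4 than in small theca at 129.9 and 172.0. In granulosa AMH was also lower in large follicles, at 250.3 and 122.3 against 428.4 and 861.2 in small ones. IHH, a hedgehog ligand made by granulosa cells, was at 10.1 and 2.2 in large theca. The granulosa arrays of KRT8, FSHR and IHH overlapped between small and large follicles.

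INHA, FST and SPP1, secreted granulosa products, were higher on both large than on both small arrays without passing the test. INHBA, also secreted, was called, whereas AMH was lower and the arrays of IHH overlapped. INHA, the inhibin alpha subunit, gave 3971.9 and 2929.9 in small and 7549.4 and 7721.7 in large theca (1.16), and FST 1291.8 and 3097.2 in small and 3877.6 and 6868.0 in large theca (1.36). Osteopontin, SPP1, gave 14.4 and 96.4 in small and 699.3 and 648.8 in large theca (3.56 ± 0.72, adjusted p = 0.134, and 2.62 without small replicate 1), which is 9.84% of the level in granulosa of large follicles. SPP1 rose with size in granulosa as well, by 3.48 (adjusted p = 0.0218, limma). In pools of a whole layer, more cells of a type and more RNA per cell cannot be told apart. The part of granulosa cells within the theca pools in the differences between small and large theca was not tested.

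**Figure D3:**
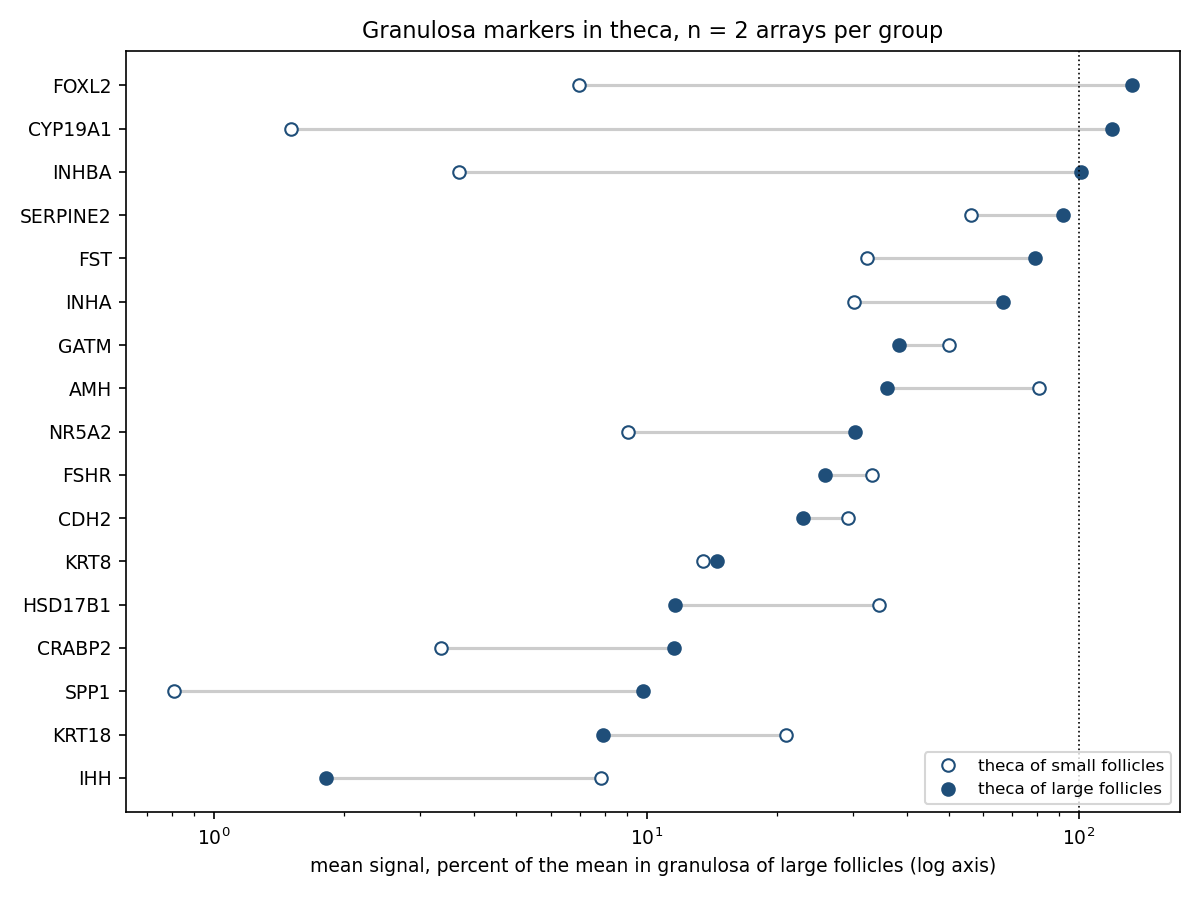
Mean signal of 17 granulosa markers in theca of small (open) and large follicles (filled), as a percentage of the mean in granulosa of large follicles (log axis, n = 2 arrays per group). CYP19A1 and INHBA reach 119% and 101% in large theca; the point of FOXL2 rests on granulosa signals of 8.6 and 64.3 and has no firm reference. KRT18 and IHH are lower in large than in small theca.

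The same size comparison was made in granulosa, for the question whether the rises were those of the theca layer alone. CYP19A1 rose there as well, by 4.15 (adjusted p = 0.00587), TNFAIP6 by 2.95 (adjusted p = 0.0192) and APOA2 by 2.63 (adjusted p = 0.0108). INHBA gave 1.79 (adjusted p = 0.0850) and LOC767968 0.80 (adjusted p = 0.348) in granulosa. Both were already brighter in small granulosa than in small theca. INHBA gave 1205 and 1078.4 there against 171.3 and 135.2, and LOC767968 1103.5 and 1141.7 against 385.2 and 252.5. The difference between the layers was not called for any of the 5 named genes: its adjusted p was 0.17 for INHBA, 0.21 for LOC767968, 0.53 for TNFAIP6, 0.56 for CYP19A1 and 0.62 for APOA2. Bt.24940.1.A1_at gave 1.89 in granulosa (adjusted p = 0.0895, limma), and its difference was not called either (adjusted p = 0.18).

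CYP17A1, CYP11A1, HSD3B1 and STAR of the theca's steroid pathway were bright at both sizes, at 622.1 or above on all 4 arrays. A wider list of steroidogenesis genes gave uneven differences, more of them above 0 than below. Of its 18 genes 1 rose, CYP19A1, and 0 fell. The list also holds CYP19A1, HSD17B1 and NR5A2, which are among the granulosa markers above, so its counts are not those of theca genes alone. On both large arrays 9 were higher and 2 lower, against 19.3% and 22.1% of all genes. The median log2 change was 0.57, with 14 genes above 0 and 4 below. CYP17A1, which commits steroids to the androgen path, gave 4862.6 and 1785.8 in small, 2935.6 and 3859.7 in medium and 5781.5 and 2941.2 in large theca. The small and large arrays overlapped, and the change was 0.48 ± 0.57 (adjusted p = 0.807). STAR, which brings cholesterol to the inner mitochondrial membrane, overlapped too, with 3065.9 and 729.8 in small and 3599.0 and 1591.5 in large theca (0.67 ± 0.67, adjusted p = 0.768). For both genes small replicate 1 was the high one of its pair, and without it their changes were 1.20 for CYP17A1 and 1.69 for STAR, still not called. INSL3 did not keep a direction: its change was -0.26 ± 0.47 (adjusted p = 0.885), 0.01 without small replicate 1 and 0.19 after quantile normalisation.

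The other named genes of the pathway went both ways. HSD3B1, CYP11A1 and NR5A2 were among the higher genes on both large arrays, and HSD17B1 and NR5A1 were the 2 lower ones of the list. HSD3B1, which turns pregnenolone into progesterone, gave 1081.5 and 622.1 in small and 1878.3 and 2325.3 in large theca (1.33 ± 0.37, adjusted p = 0.277). CYP11A1, the first enzyme of the path, gave 2303.7 and 1390.6 in small and 3902.7 and 2625.2 in large theca (0.83 ± 0.39, adjusted p = 0.485). HSD17B1, an oestrogen-forming dehydrogenase, went the other way, from 593.0 and 539.6 in small to 137.4 and 245.9 in large theca. The steroidogenic regulator NR5A1 was lower as well, at 821.2 and 350.7 in small and 331.1 and 271.7 in large theca, while its relative NR5A2 was higher, at 33.4 and 102.1 against 161.9 and 290.7. None of these 5 was called.

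The LH receptor gene LHCGR was dim but separated the sizes. It gave 27.5 and 37.4 in small, 49.1 and 40.5 in medium and 87.6 and 158.5 in large theca, a change of 1.48 ± 0.36 (adjusted p = 0.208), and a second probe set gave 1.67 (adjusted p = 0.232). Over 11 genes of LH and cAMP signalling 0 were called, 3 were higher and 1 lower on both large arrays, and the median was 0.33. The regulatory subunit PRKAR2B was 29.1 on small replicate 1, against 456.4 on the other small array and 244.0 and 362.2 in large theca, so its change of 1.10 became -0.59 without that array. Of 7 steroid and hormone receptors 0 were called and 4 were lower on both large arrays (median -0.27). Among them the insulin receptor INSR gave 91.1 and 107.3 in small and 51.2 and 34.8 in large theca (-0.98). Its other tested probe sets gave -0.53, 0.12 and -0.07. The dim progesterone receptor PGR, also lower, gave 17.0 and 20.1 against 9.7 and 2.1.

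Among 12 tested theca markers 0 were called, 3 were higher and 5 lower on both large arrays, with a median of -0.20. BMP4, a bone morphogenetic protein of the theca, gave 1.5 and 46.1 in small and 88.5 and 73.7 in large theca (1.55, and 0.64 without small replicate 1). COLEC12, a scavenger receptor, gave 766.7 and 438.7 in small, 310.5 and 323.7 in medium and 232.6 and 163.7 in large theca (-1.50 ± 0.43, adjusted p = 0.292). APOD, an abundant lipid carrier, was lower at 5251.3 and 3240.2 in large than at 9014.6 and 6460.7 in small theca.

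Cholesterol supply was measured on 17 genes, of which 0 were called, 5 were higher and 1 lower on both large arrays; the median was 0.31 with all arrays, 0.73 without small replicate 1 and -0.31 without small replicate 2. SQLE, squalene epoxidase, gave 449.8 and 151.2 in small and 720.9 and 530.8 in large theca (1.19, and 1.92 without small replicate 1). FDFT1, squalene synthase, gave 26.4 and 171.4 in small and 423.4 and 507.8 in large theca (2.43, and 1.36 without small replicate 1), but another of its probe sets gave 0.22. Of 18 apolipoprotein and lipid carrier genes APOA2 rose, 5 were higher and 3 lower on both large arrays, and the median of the list was 0.15. FABP4, a fatty acid carrier of fat cells and capillaries, was high on large replicate 1 alone, at 321.7 against 22.4 on large replicate 2 and 19.4 and 14.5 in small theca.

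A further set of transcripts was higher on both large arrays with an adjusted p between 0.05 and 0.15, not called. RGN, regucalcin, a calcium-binding protein, gave 130.0 and 4.6 in small, 92.2 and 116.5 in medium and 1040.4 and 525.7 in large theca (3.79 ± 0.67, adjusted p = 0.0892, and 5.20 without small replicate 1). OXT, the precursor of oxytocin, which the bovine follicle and corpus luteum make, gave 8.8 and 66.5 in small and 500.9 and 204.9 in large theca (2.90 ± 0.52, adjusted p = 0.0892, and 2.03 without small replicate 1). LRP8, a lipoprotein and reelin receptor, gave 1.1 and 7.9 in small, 135.5 and 4.8 in medium and 143.3 and 552.7 in large theca (3.90 ± 0.73, adjusted p = 0.0941), again with medium replicate 1 and large replicate 2 the high ones of their pairs. The chaperone ERP27 of the endoplasmic reticulum was at like levels in small and medium theca, 122.4 and 144.1 against 93.5 and 153.8, and at 620.5 and 525.7 in large theca (1.98 ± 0.37, adjusted p = 0.0941). Between the same sizes in granulosa OXT rose by 2.49 (adjusted p = 0.0219, limma). LRP8 and RGN gave 2.27 and 1.73 there and ERP27 -0.49, none of them called.

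The tight junction gene CLDN11 gave 21.9 and 25.5 in small and 177.1 and 130.6 in large theca (2.08 ± 0.36, adjusted p = 0.0892). A brighter probe set of the same gene, at 961.9 and 228.7 in small and 2024.4 and 910.4 in large theca, gave 1.49, and its arrays overlapped. Tissue factor, F3, which starts coagulation, gave 4.7 and 29.8 in small and 93.7 and 123.2 in large theca (2.00). TRIB2, a pseudokinase, gave 52.1 and 84.0 in small and 254.8 and 470.8 in large theca (2.14), and 0.62 and 1.60 by its 2 other probe sets. The dim probe sets of PHF1, a chromatin regulator, and MTF1, a metal-responsive transcription factor, gave 1.59 and 1.42 from small signals of at most 5.7, and the other tested probe sets of PHF1 gave -0.10 and 0.20.

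SCG2, a granin of secretory granules, was set by its level on the large arrays, which were far apart. It gave 493.0 and 163.2 in small, 132.1 and 288.4 in medium and 4230.2 and 994.3 in large theca (2.78 ± 0.71, adjusted p = 0.232, and 3.53 without small replicate 1). The other granin, CHGA, gave 988.0 and 1706.4 in small and 2339.2 and 2406.7 in large theca (0.86), while a second, dimmer probe set of CHGA was lower in large theca (-1.05). Of 9 nerve and glia genes 0 were called and 4 were higher on both large arrays, SCG2 and CHGA among them, with a median of 0.10. The Schwann cell factor SOX10 was at 9.7 and 8.2 in large theca.

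No probe set was called down. The 15 genes lowest in p among those below on both large arrays were mixed in function, and GPC3, FOXS1, EGFLAM and COL15A1 came first. GPC3, a glypican that binds growth factors at the cell surface, gave 595.1 and 752.4 in small, 588.3 and 570.7 in medium and 135.0 and 96.3 in large theca. Small and medium arrays lay together and the large ones apart, with a change of -2.40 ± 0.42 (adjusted p = 0.0892). FOXS1, a forkhead factor of pericytes, gave 140.4 and 67.9 in small, 43.3 and 48.4 in medium and 10.5 and 6.3 in large theca (-2.24 ± 0.40, adjusted p = 0.0892). EGFLAM, or pikachurin, a secreted matrix protein, was bright at all sizes, at 2446.3 and 1585.8 in small, 1200.5 and 1530.7 in medium and 580.5 and 547.5 in large theca (-1.78 ± 0.32, adjusted p = 0.0941). With 64 added to the signals in place of 16, EGFLAM fell by 1.70 and ERP27 rose by 1.69, both called (adjusted p = 0.0324). Over 15 alternatives the adjusted p ran from 0.0134 to 0.682 for EGFLAM and from 0.0273 to 0.613 for ERP27, and each was called in 2.

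COL15A1, a collagen of the basement membrane zone, gave 1771.0 and 2188.1 in small, 803.4 and 1298.2 in medium and 484.7 and 242.9 in large theca (-2.46 ± 0.46, adjusted p = 0.0941), and -2.28 by a second probe set. The signalling ligand WNT2B gave 158.6 and 117.4 in small and 38.3 and 26.7 in large theca (-1.66 ± 0.32, adjusted p = 0.107). The chemokine CCL14 gave 404.0 and 315.8 in small and 76.9 and 75.0 in large theca (-2.02 ± 0.40, adjusted p = 0.131). CA4, a membrane-bound carbonic anhydrase of capillaries, was already low in medium theca, at 53.6 and 69.3 against 328.5 and 243.4 in small and 69.7 and 24.5 in large theca (-2.34 ± 0.49, adjusted p = 0.143).

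The other genes lowest in p were COL5A3, a minor fibrillar collagen (-1.77), the mitochondrial carbonic anhydrase CA5A (-1.86), the copper carrier ceruloplasmin, CP (-1.92), the antimicrobial peptide CATHL5 (-2.57), the phosphatase subunit PPP2R2B (-1.52), the growth-arrest gene RPRM (-1.91), IQSEC1, which activates ARF6 (-1.84), and PABIR2 (-1.79). Both large arrays were below both small arrays in all 8, as the rule that named them requires. RPRM gave 45.7 and 111.0 in small and 8.1 and 6.9 in large theca, and it fell in granulosa as well, by 2.93 (adjusted p = 0.00419). Without small replicate 1 the change of CATHL5 was -1.66.

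Endothelial genes leaned lower in large theca. Of 16 tested 0 were called, 8 were lower and 1 was higher on both large arrays, against 22.1% and 19.3% of all genes, and 13 had a change below 0. The median was -0.90, against -0.02 over all genes, and -0.71 without small replicate 1. The summed signal of 18 endothelial genes was 2712.6 and 2249.3 in small, 2688.0 and 2423.5 in medium and 1533.0 and 861.6 in large theca. Small and medium theca overlapped in this sum and both large arrays were below all of them, large replicate 2 the lowest.

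ROBO4, a guidance receptor of endothelial cells, gave 252.5 and 90.6 in small and 41.9 and 7.4 in large theca (-2.20 ± 0.50, adjusted p = 0.169, and -1.53 without small replicate 1). Claudin-5, CLDN5, of endothelial tight junctions, gave 645.1 and 294.6 in small and 160.3 and 150.7 in large theca (-1.40). The angiopoietin receptor TEK gave 143.4 and 200.6 in small, 191.2 and 192.6 in medium and 90.1 and 66.2 in large theca (-0.99). The cadherin CDH5 gave 116.2 and 197.2 in small and 144.5 and 65.5 in large theca, so its arrays overlapped. The adhesion molecule PECAM1 overlapped as well, at 234.4 and 138.6 against 139.8 and 65.2.

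The ligands and inhibitors of vessel growth went both ways. Of 14 genes 0 were called, 10 had a change below 0 and 4 above, with a median of -0.15. On both large arrays 3 were higher and 5 lower, against 19.3% and 22.1% of all genes. VEGFA, the main vascular growth factor, gave 65.3 and 80.6 in small and 105.9 and 107.5 in large theca (0.47). ANGPT2, the angiopoietin that loosens vessels, gave 151.7 and 720.2 in small and 209.3 and 134.6 in large theca, so that its change was -0.93 with and -2.00 without small replicate 1. The angiogenesis inhibitor THBS1 gave 0.61, with the large arrays above the small ones, from 1659.3 and 1803.6 in small to 2442.1 and 2876.6 in large theca.

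Smooth muscle genes and collagens had 0 called members. Of 14 smooth muscle and pericyte genes 6 were higher and 3 lower on both large arrays, against 19.3% and 22.1% of all genes, and the median was 0.39. Transgelin, TAGLN, an actin-binding protein, gave 1088.6 and 988.0 in small, 3665.3 and 2393.7 in medium and 3968.9 and 2941.5 in large theca (1.70). Smooth muscle actin, ACTA2, gave 4980.9 and 4243.9 in small and 8734.4 and 6889.9 in large theca (0.75). The pericyte receptor PDGFRB, in contrast, was at 72.3 and 57.3 in small and 29.2 and 24.3 in large theca (-0.91). Summed over the 14 genes the signal was 23846 and 17591 in small, 25347 and 22627 in medium and 31019 and 24411 in large theca.

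Of 14 collagens 7 were lower and 0 higher on both large arrays, against the same shares (median -0.33, and -0.44 without small replicate 1). COL4A1, the main collagen of basement membranes, gave 5089.7 and 4095.6 in small and 2926.1 and 1324.6 in large theca (-1.21). COL1A2 of the fibrils was level, at 5959.3 and 6193.7 against 6100.0 and 5152.3. Among 31 matrix glycoproteins and proteoglycans 6 were higher and 8 lower (median -0.10). The microfibril protein MFAP4 was the one with the largest change apart from EGFLAM, at 62.9 and 64.2 in small, 223.5 and 169.9 in medium and 280.3 and 177.2 in large theca (1.59 ± 0.38, adjusted p = 0.209).

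Of 18 fibroblast genes 3 were higher and 5 lower on both large arrays (median -0.14), and the summed signal of 19 such genes, 1 of them not tested, was 37891 and 44859 in small and 36741 and 34675 in large theca. Asporin, ASPN, a collagen-binding proteoglycan, gave 34.4 and 341.0 in small and 674.5 and 982.8 in large theca; its change of 2.63 became 1.22 without small replicate 1. SFRP2, a WNT antagonist, gave 1.65 ± 1.27 (0.72 without small replicate 1), with overlapping arrays. Of 22 matrix proteases and inhibitors 0 were called, 6 were higher and 2 lower (median 0.29). TIMP1, an inhibitor of metalloproteinases, gave 2365.0 and 1900.3 in small and 3808.7 and 6273.9 in large theca (1.20), and the urokinase receptor PLAUR gave 38.6 and 62.8 against 79.7 and 339.5 (1.49).

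**Figure D4:**
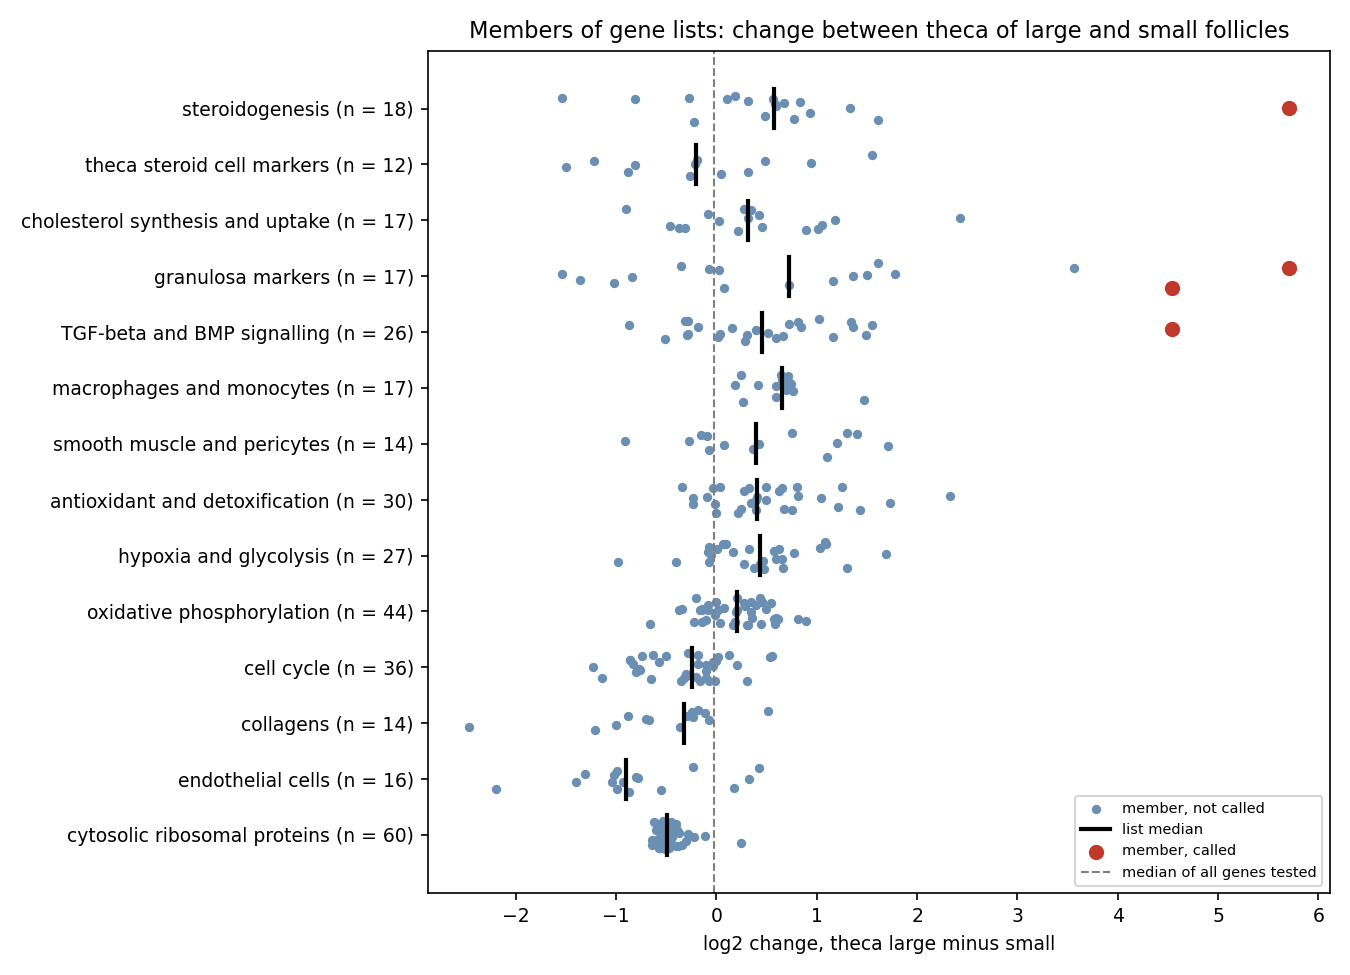
Log2 change, large minus small theca, of the tested members of 14 gene lists; each blue point is a gene, red points are called genes, the bar is the median of the list and the dashed line that of all genes. The ribosomal list lies to the left of 0 with little spread on the deposited scale, with a median of -0.49 that becomes -0.03 after quantile normalisation, and the endothelial median is -0.90.

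Ribosomal protein genes gave the most even pattern of the 43 lists on the deposited scale. Of 60 genes 58 were lower and 1 higher on both large arrays, and 59 had a change below 0, with a median of -0.49, while 0 were called. Their median signal was 13454 and 10931 in small, 8037.9 and 8432.6 in medium and 8338.6 and 8799.5 in large theca. RPL32, for example, gave 10223 and 10253 in small and 6525.8 and 6556.1 in large theca (-0.65 ± 0.32, adjusted p = 0.514). The exceptions were the dim RPS19 probe set, with signals of 30.4 or below and overlapping arrays, and RPS28, at 1230.7 and 1564.8 in small and 1576.5 and 1722.9 in large theca. These genes lie at the top of the signal range, and the size of their change depends on the scaling. After quantile normalisation the median was -0.03, and without small replicate 1 it was -0.36 on the deposited scale. That normalisation gives every array the same distribution of signals. It therefore cannot tell a true shift of genes at the top from an effect of scaling.

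Mitochondrial and antioxidant genes had medians above 0, again with 0 called. Of 44 genes of oxidative phosphorylation 23 were higher and 2 lower on both large arrays, against 19.3% and 22.1% of all genes, with a median of 0.20. The complex III subunit UQCRB gave 941.0 and 1614.6 in small and 2140.7 and 2478.1 in large theca (0.89), and -0.02 by a second, dimmer probe set. NDUFB4 of complex I gave 813.6 and 1163.6 against 1726.2 and 1712.5 (0.81). Of 30 antioxidant and detoxification genes 15 were higher and 1 was lower (median 0.40). GPX3, a secreted glutathione peroxidase, gave 50.7 and 395.4 in small and 671.4 and 985.7 in large theca; its change was 2.32 with and 1.01 without small replicate 1. MGST1, a membrane glutathione transferase, gave 28.0 and 153.9 in small and 516.4 and 139.3 in large theca, so its arrays overlapped. The medians of both lists stayed above 0 without small replicate 1, at 0.30 and 0.30.

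For glycolysis and the response to low oxygen 27 genes were tested, with a median of 0.44 and 0 called. On both large arrays 13 were higher and 2 lower, against 19.3% and 22.1% of all genes. DDIT4, an inhibitor of mTOR signalling induced by low oxygen and glucocorticoids, gave 645.9 and 540.9 in small, 1115.5 and 692.6 in medium and 1636.5 and 2299.0 in large theca (1.69 ± 0.37, adjusted p = 0.155). The glycolytic enzyme PGAM1 gave 418.0 and 977.9 in small and 1487.4 and 1727.8 in large theca (1.30, and 0.70 without small replicate 1), and aldolase A, ALDOA, 1152.8 and 1300.4 against 2485.3 and 2721.8 (1.08). Medium theca was already at the higher level for both, at 1770.6 and 1562.4 for PGAM1 and 2575.7 and 2074.4 for ALDOA.

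Cell cycle genes leaned lower in large theca when small replicate 2 was read alone, and higher against small replicate 1 alone. Of 36 genes 0 were called and 30 had a change below 0. On both large arrays 15 were lower and 2 higher, against 22.1% and 19.3% of all genes. Their median signal was 118.95 and 200 in small, 185.6 and 249.15 in medium and 120.85 and 116 in large theca, with small replicate 1 at the level of the large arrays. The median change was accordingly -0.24 with all arrays, -0.66 without small replicate 1 and 0.17 without small replicate 2. ASPM, a spindle protein, gave 68.7 and 92.2 in small, 69.5 and 133.4 in medium and 35.2 and 20.9 in large theca (-1.14), and cyclin D3, CCND3, 722.7 and 510.5 in small and 337.9 and 182.9 in large theca (-1.23). The ribonucleotide reductase RRM2 depended on the small array read, with a change of -0.02 over all arrays and of -1.05 without small replicate 1. Of 8 inhibitors of the cell cycle 1 was higher and 2 were lower (median -0.00), the latter RPRM and the noncoding MEG3. MEG3 gave 95.0 and 70.4 in small and 26.3 and 15 in large theca (-1.44). Its other tested probe sets gave -0.21, 0.97 and -0.55.

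Leukocyte genes differed more between the large pools than between the sizes. All 17 macrophage genes had a change above 0, with a median of 0.65, but 0 were called, and 6 were higher on both large arrays. Large replicate 1 was above large replicate 2 for 17 of 17, with median signals of 232.8 and 84.1 against 99.5 and 107.8 in small theca, and without large replicate 1 the median change was 0.04. CD5L, a macrophage survival factor, gave 15 and 9.8 in small and 135.0 and 24.4 in large theca (1.47), and the folate receptor FOLR2 112.1 and 117.0 against 357.0 and 115.6 (0.76). In granulosa the same list had a median change of 3.27. Of 19 interferon response genes 3 were higher and 1 lower on both large arrays (median 0.25, and -0.09 without large replicate 1). Large replicate 1 was above large replicate 2 in 18 of 19, as for IFI6, at 2618.2 and 497.3 against 409.1 and 451.7 in small theca.

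The other blood cell lists had 0 called genes. Of 14 lymphocyte genes 1 was lower and 0 higher on both large arrays (median -0.01), and of 7 MHC class II genes 1 was higher (median 0.06). Of 8 neutrophil genes 3 were higher and 2 lower (against 19.3% and 22.1% of all genes), the latter CATHL5 and the iron-binding LTF. LTF gave 326.3 and 226.6 in small, 75.5 and 51.5 in medium and 78.6 and 33.5 in large theca (-2.07). In granulosa LTF was brighter and also lower with size, at 1713.3 and 1153.8 in small and 102.2 and 163.7 in large follicles. Its change there was -3.29 (adjusted p = 0.00419, limma). Which cells gave the LTF signal in theca was not tested. The 5 red blood cell genes overlapped between the groups, with summed signals over 9 genes of 150.8 and 70.3 in small and 101.8 and 64.3 in large theca. Of 3 platelet and mast cell genes 1 was lower, KIT, the receptor of stem cell factor, at 193.5 and 218.9 in small and 93.0 and 87.9 in large theca (-1.06), whereas its other tested probe sets gave 0.62 and -0.23.

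Of 21 chemokine and cytokine genes TNFAIP6 rose, 6 were higher and 1 lower on both large arrays, and the median was 0.24. CXCL14, a chemokine of stroma, was the lower one, at 576.6 and 1121.0 in small and 289.0 and 233.2 in large theca (-1.57). XCL1, a lymphocyte chemokine, swung between replicates, at 43.2 and 495.5 in small, 1620.8 and 88.5 in medium and 337.3 and 2875.1 in large theca. Its arrays overlapped and medium replicate 1 and large replicate 2 were the high ones, as for INHBA.

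Growth factor pathways were read by ligand, receptor and antagonist. Of 26 genes of TGF-beta and BMP signalling INHBA rose, 8 were higher and 3 lower on both large arrays (median 0.45, and 0.11 without small replicate 1). Of 12 genes of the IGF system 0 were called, 2 were higher and 4 lower (median -0.29). The ligand IGF2, a theca product, gave 4706.7 and 2567.4 in small, 3040.1 and 3393.8 in medium and 1338.5 and 1489.9 in large theca (-1.29 ± 0.37, adjusted p = 0.294), and -0.40 and -0.82 by its other tested probe sets. The binding protein IGFBP3 was lower too, at 1350.0 and 944.8 in small and 762.0 and 495.6 in large theca (-0.86), while the arrays of IGFBP4 overlapped. STC1, a calcium-regulating hormone placed in that list, gave 159.1 and 273.3 against 377.8 and 751.5 (1.29).

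Hedgehog genes were few but uniform in sign: of 3 tested 2 were lower on both large arrays, with a median of -0.92 and 0 called. SMO, the signal transducer, gave 333.2 and 183.3 in small and 114.7 and 126.1 in large theca (-0.95), and the co-receptor BOC 64.6 and 87.7 against 36.6 and 28.5 (-0.92). Of 18 WNT and NOTCH genes 1 was higher and 5 were lower (median -0.12), among them WNT2B and the NOTCH ligand JAG1, at 616.7 and 272.1 in small and 142.1 and 128.4 in large theca (-1.50). Of 16 other growth factors and receptors 1 was higher and 6 were lower (median -0.34). The neurotrophin receptor NGFR, gave 84.1 and 55.3 in small and 12.5 and 13.3 in large theca (-1.55 ± 0.35, adjusted p = 0.168).

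The remaining lists had 0 called genes beyond those named above. Of 14 genes of the LH surge and corpus luteum 5 were higher and 3 lower on both large arrays (median 0.32), with TNFAIP6 and OXT among the former, while PTGS2, the prostaglandin synthase of the ovulatory surge, was at 6.5 and 1.8 in large theca. Of 25 immediate early and heat shock genes 6 were higher and 5 lower (median 0.05), led by ZFP36, which destabilises cytokine messages, at 67.9 and 118.4 in small and 257.6 and 313.2 in large theca (adjusted p = 0.232), and the stress gene GADD45B (1.39). Of 17 apoptosis genes 2 were higher and 2 lower (median 0.04), and BAX, a promoter of cell death, was at 1.8 on small replicate 1 alone against 42.0 to 44.2 on the other 3 arrays. Of 11 genes of retinoid handling 3 were higher and 3 lower (median 0.09): ALDH1A1, which makes retinoic acid, gave 2612.7 and 2341.6 in small and 5339.0 and 6173.7 in large theca (1.21), and RARRES1 1358.9 and 684.3 against 3802.9 and 2568.8 (1.68).

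Of 22 genes of protein folding in the endoplasmic reticulum 6 were higher and 6 lower (median -0.10). PDIA4, a disulphide isomerase, gave 1338.3 and 507.3 in small and 409.1 and 233.2 in large theca (-1.37, and -0.69 without small replicate 1). However, the other tested probe sets of PDIA4 gave 0.16 and 1.21. HERPUD1 was at 571.0 and 1220.5 against 1624.1 and 2620.2 (1.29). Of 5 BEX family and related genes with a name 2 were higher and 2 lower (median -0.31) and 0 were called, beside the rise of LOC767968: TCEAL1 gave 0.91 (0.26 without small replicate 1) and BEX5 -0.87. Genes of the surface epithelium, oviduct and oocyte were dim. Of 6 surface epithelium and oviduct genes 1 was higher and 2 were lower, OVGP1 at 40.9 and 34.3 in small and 2.3 and 7.0 in large theca and KRT7 at 60.2 and 25.5 against 12.4 and 8.4. Of 4 oocyte genes 2 were lower, and none exceeded 49.5 on the 4 arrays. Of 7 adipocyte and liver genes APOA2 rose, 2, APOA2 and FABP4, were higher and 1 was lower on both large arrays.

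Leaving out small replicate 1, the array with the high GAPDH ratio, kept 4 of the 6 calls and changed which other genes passed. INHBA gave 4.69 (adjusted p = 0.0374), CYP19A1 5.27 (adjusted p = 0.0418) and LOC767968 2.99 (adjusted p = 0.0418), and Bt.24940.1.A1_at was the other one kept. TNFAIP6 at 4.78 (adjusted p = 0.0594) and APOA2 at 3.41 (adjusted p = 0.0893) kept their size and were no longer called. The only genes that became called, named here after their values had been seen, were RGN, which rose by 5.20 (adjusted p = 0.00267), and CARTPT. CARTPT, the precursor of a peptide known from bovine granulosa, gave 62.4 and 626.6 in small, 23.9 and 12.8 in medium and 26.1 and 3.6 in large theca, and fell by 4.48 (adjusted p = 0.0418). A second, dim probe set of RGN gave -0.63 over all arrays.

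**Figure D5:**
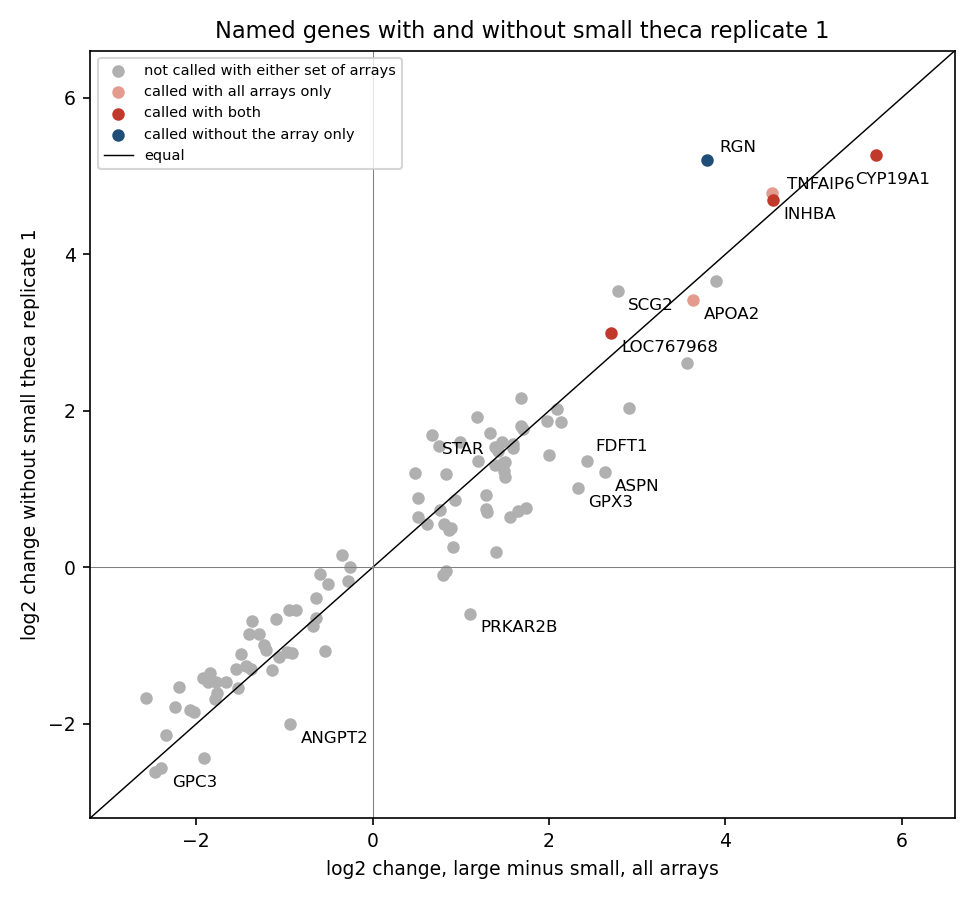
Log2 change of the 100 named genes, large minus small theca, with all arrays (horizontal) and without small theca replicate 1 (vertical), with n = 1 small array in the latter; the line marks equal changes. RGN goes from 3.79 to 5.20, whereas ASPN, GPX3 and PRKAR2B, low on that array, lie below the line at 1.22, 1.01 and -0.59.

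The change with follicle size differed between theca and granulosa for 2 of 17236 probe sets (0.0116%, and 0.0254% of genes), and 1820 had an unadjusted p under 0.05. They are named here with their values already known. CCL5, a chemokine of T cells and macrophages, gave 129.2 and 84.0 in small and 90.3 and 77.2 in large theca (-0.28 ± 0.44), and 2.4 and 2.9 in small against 556.6 and 296.9 in large granulosa (4.50 ± 0.44). The difference was -4.78 ± 0.62 (adjusted p = 0.0360, limma). UCP2, a mitochondrial carrier abundant in leukocytes, was lower on both large theca arrays, at 45.5 and 39.9 against 105.5 and 83.3 (-0.91 ± 0.37, adjusted p = 0.438), and higher in large granulosa, at 213.6 and 94.7 against 1.7 and 10.2 (2.89 ± 0.37). Its difference was -3.79 ± 0.53 (adjusted p = 0.0419). The small granulosa signals of both genes lie under the filter level of 22.5, so the size of each difference depends on the constant added: with 1 it was -7.12 for CCL5 and -5.82 for UCP2, and with 64 it was -3.02 and -2.15, none of them called. The summed macrophage signal moved with both on the granulosa side, from 700.4 and 807.9 in small to 19318 and 5780.4 in large granulosa, against 2283.9 and 2008.3 in small and 5101.7 and 2191.5 in large theca, and its part in the difference was not tested. Leaving out any 1 of small replicate 1, large replicate 1 or large replicate 2 of theca left 0 such calls, and leaving out small replicate 2 gave 224.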

How the data were processed

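Values came from 1 table of the series, in which all 12 columns matched a sample and 0 columns stayed unmapped. Each probe set has 1 deposited intensity per array, not in logarithms. The software behind them is not given in the sources used here. The authors' scaling was kept: the 2% trimmed mean was 125.03 to 125.04 on every array, and array medians spanned 0.383 log2 units. Median signals of the 4 arrays were 34.0 to 39.1, and their number limits the precision.

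Groups came from the titles. Of 24128 probe sets 112 were controls. The platform annotation gave 1 symbol to 13292 of the 24016 left, several to 86 and none to 10638; 13263 matched the RefSeq gene table of assembly ARS-UCD2.0, used for names only, and 0 symbols changed. Tests were limited to probe sets whose mean in some group was above a signal of 22.5, which is the 40th percentile. Group means of log2(signal + 16) were fitted with limma 3.58.1 in R 4.3.3 over all 12 arrays (degrees of freedom 6 residual and 7.92 prior, prior SD 0.376), and p-values were adjusted by Benjamini-Hochberg at 0.05 over all tested probe sets. With 2 arrays against 2, exact two-sided permutation p-values cannot go below 0.333. Theca replicates shared 0.387% to 0.641% of their values exactly, so no array was a copy.

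The named genes were 6 key theca genes (CYP17A1, INSL3, LHCGR, STAR, CYP11A1 and HSD3B1), the 15 rises and 15 falls that were called or, failing that, lowest in unadjusted p among one-symbol probe sets whose arrays did not overlap, and, per list, up to 4 called members or else the 2 with the largest change, 100 in all. Other list members were named after their values were seen. There were 43 lists with 1068 entries, of which 803 were on the array and 677 distinct genes were tested; 4 of these were called, against 5 of 7885 genes in all (0.0634%). The probe set brightest over all 12 arrays stood for a gene in a list. Members and lists were chosen with earlier results of these data known, and 1 entry of the antioxidant list was corrected from SELP to SELENOP after its values were seen. Alternatives were other constants (1 and 64), quantile normalisation, no filter or the 60th percentile, fits on fewer arrays, a trend, array weights, a replicate block and leaving out arrays. The procedure was tested on simulated data. Plots used matplotlib 3.10.9 (Python 3.11.15, pandas 2.3.3).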

Additional observations from a re-analysis of the deposited data

Results flagged for a closer look

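The change from small to large follicles differed between theca and granulosa by a test of the difference itself for a pair of genes. For CCL5 the theca change minus the granulosa change was -4.78, and it was called under 4 of 13 alternatives, with values from -7.12 to -3.02 and adjusted p from 0.00721 to 0.378 (limma). For UCP2 it was -3.79, called under 2 of 12 alternatives, with values from -5.82 to -2.15 and adjusted p from 0.0167 to 0.378. No group had the 4 or more arrays needed to look for single outlying values.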

How the results depend on the processing

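The 6 calls stayed 6 with quantile normalisation, without a filter and with a trend. INHBA, CYP19A1 and Bt.24940.1.A1_at were called under 11 of 15 alternatives, LOC767968 under 9 of 15, TNFAIP6 under 8 of 15 and APOA2 under 7 of 14; all kept their sign. Fits of the 6 theca arrays or of the 4 compared arrays alone called 0 up and 0 in all, with 1986 and 1345 probe sets at an unadjusted p under 0.05, and 0 list genes. Leaving out 1 theca array gave 0 to 607 calls in all, 0 to 449 up, 0 to 158 down and 0 to 41 list genes, against 6, 6, 0 and 4. The lone array left in a group is then assumed to vary like the others. Leaving out both small theca replicate 1 and large granulosa replicate 1, chosen after seeing the data as the arrays with the highest 3′ to 5′ ratios, left 1 call, RGN, up at 5.20 (adjusted p = 0.00574), 0 list genes and 0 differences between the layers.

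A constant of 1 gave 7 calls, 3 of them among the 6, with DCAF11, PHF1 and MTF1 up and 1 down, the unnamed Bt.28018.1.A1_at, and 2 list genes called. A constant of 64 gave 8 calls, including all 6 and 1 down, EGFLAM. Array weights left 2 list genes called. The difference between the layers had 2 calls, but 0 with a constant of 1 or 64, with quantile normalisation, without a filter or with array weights, 1 with the stricter filter, and 0 to 224 without 1 theca array. With the replicate number as a block 6 probe sets were called, the same 6, and 1 difference between the layers. The labels do not say that a number pairs samples: the replicate differences of small and large theca correlated at 0.267, and over all 15 pairs of groups at -0.335 to 0.402. Over 15 alternatives 20 of 1469 values of the 100 named genes changed sign, 44 became called and 28 lost a call. No called value changed its direction.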

Other observations

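The large pools differed from each other in several sets of genes. Large replicate 1 was above large replicate 2 for 17 of 17 macrophage genes, 18 of 19 interferon response genes and 14 of 16 endothelial genes, and FABP4 was at 321.7 there against 22.4. Large replicate 2 was above replicate 1 for 6 of 6 called probe sets, against 47.2% of all tested. XCL1 was at 2875.1 on large replicate 2 against 337.3. The medium pools were unequal in 5 of 6 called probe sets, with INHBA at 2846.9 and 955.9 and CYP19A1 at 911.6 and 183.8, whereas LOC767968 gave 429.5 and 436.9.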
